A study of Mus musculus with 16 samples.

Results

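A set of 36 genes of the extracellular matrix and of the fibroblasts that make it were followed in soleus muscle of the mouse hindlimb, which holds many slow fibres, while the animals' oxygen was lowered. The genes were taken from a fixed list, and all 36 of 36 were measured among the 22126 features tested. They encode 5 fibrillar collagens, 7 other collagens, 4 proteoglycans or fibril-binding proteins and 4 matricellular or adhesive glycoproteins. The rest are 6 elastic fibre proteins, 3 proteins of collagen maturation, 6 proteinases or their inhibitors, and Pdgfra, a growth factor receptor used to mark fibroblasts. Of the 36, 33 were well above background on all 16 arrays. The exceptions were Col5a2 (15 arrays), Lox (12 arrays) and Mmp3 (3 arrays).

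Total RNA came from the soleus of male mice at day 0, before the oxygen was changed, and 3, 7 and 14 days into a protocol. Oxygen was brought down stepwise to 10% in its first week and held there in the second. All groups carry the same treatment label, and day 0 served as the control; the strain, age and genotype are not given in the sources used here. Day 0 had 4 RNA samples, day 3 had 3, day 7 had 3 and day 14 had 4. Other samples of days 3 and 7, if any, were not analysed here. Since nothing ties each RNA to a mouse of its own, the p-values measure the spread between these samples, which may be technical.

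The matrix of skeletal muscle wraps each fibre in a basement membrane, whose core is a mesh of collagen IV. Outside it, collagen VI filaments and fibrils of collagens I, III and V bind fibres into bundles, and elastin lets the tissue recoil. Fibroblasts, also called fibro-adipogenic progenitors in muscle, secrete most of these proteins, and proteoglycans such as decorin and lumican set the thickness of the fibrils. Matrix metalloproteinases cut the finished matrix and are held back by tissue inhibitors (Timps). Prolyl and lysyl hydroxylases, which modify collagen chains, and lysyl oxidases, which cross-link them, use molecular oxygen.

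Several members are neighbours on a chromosome with no other protein-coding gene between them in RefSeq: Col4a1 with Col4a2, Col6a1 with Col6a2, Col3a1 with Col5a2, and Dcn with Lum. Col4a1 and Col4a2 run in opposite directions from start sites that lie so close that the first 22 bases of each annotated transcript are shared. That stretch is shown because both genes moved together in every comparison in which either passed. The capitals mark the bases from the start of Col4a2, on the plus strand, to the start of Col4a1, on the minus strand (RefSeq, GRCm38.p6, chr8:11312801-11312830, plus strand).
Col4a1 and Col4a2: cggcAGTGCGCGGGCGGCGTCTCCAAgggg

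Mmp3, which encodes stromelysin 1, was well above background at day 3 alone, and its promoter is shown for that reason. The stretch holds the 250 bases before the annotated start (RefSeq, GRCm38.p6, chr9:7445572-7445821, plus strand), and the capitals mark an AP-1 match (TGACTCA or TGAGTCA) that begins at position -46 and a TATA box (TATAAA) that begins at -7, counted back from the start site.
Mmp3: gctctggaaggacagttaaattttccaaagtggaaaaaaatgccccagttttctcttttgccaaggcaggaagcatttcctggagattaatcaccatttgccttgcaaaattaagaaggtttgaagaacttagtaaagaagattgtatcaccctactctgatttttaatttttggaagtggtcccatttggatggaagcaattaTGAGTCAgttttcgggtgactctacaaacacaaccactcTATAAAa

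RefSeq windows of 300 bases (250 before and 50 after the start) were found for 24 of the 36 members, and each motif was searched on both strands. The core motif of hypoxia-inducible factor, ACGTG, was present in 6 of the 24 (25.0%), against 19.6% of all 32851 windows. These 6 were Col1a2, Col5a1, Fbln1, Mmp14, Serpinh1 and Timp1, and none of them passed the test in any comparison. The AP-1 motif was present in 2 of 24 (8.33%), Mmp3 and Col6a1, against 5.20% of all windows, and TATAAA in 4 of 24 (16.7%) against 13.6%. The GC box GGGCGG was present in 13 of 24 (54.2%) against 35.7% of all windows, and can overlap other GC-rich motifs. Col4a1 and Col4a2 are both among these, but their windows share 78 bases. The shared stretch shown above holds GGGCGG, so the same site counts for both genes. CCAAT was present in 8 of 24 (33.3%) against 37.4%, Col4a1 and Col4a2 among them. A match is a description of the sequence and says nothing of binding.

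The 16 arrays lay on 2 slides. Slide 1 held the day 3 and day 7 arrays with day 0 RNA samples 1 and 2, and slide 2 held the day 14 arrays with all 4 day 0 RNA samples, so RNA samples 1 and 2 of day 0 were run on both. Levels are given per array as log2 of the spot intensity over the array's 75th percentile, and differences come from a limma fit with day and slide as terms. A difference passed at an adjusted p under 0.05 over all features (Benjamini-Hochberg, limma's moderated test, 2-sided), and every adjusted p is from that fit unless another is named. Precision is limited by how few RNA samples there were, with standard errors (SE) of 0.14 to 0.81 among members at days 3 and 7. All 9 slow fibre markers measured were well above background on every array, with a summed linear level of 8612 to 11471 times the 75th percentile. The 8 fast fibre markers were too (6243 to 8793), so these levels mark muscle but do not set soleus apart. Against day 0, Pvalb was higher at day 7 (1.65 ± 0.51, adjusted p = 0.0319) and Mylpf lower at day 3 (-0.72 ± 0.19, adjusted p = 0.0387). Myh4 differed by 5.16 ± 1.57 at day 3 and did not pass (adjusted p = 0.0683). The part of fibre types in the member differences was not tested.

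The day 0 arrays on slide 1 stood apart for several members. Col6a2 read 3.30 and 3.29 for RNA samples 1 and 2 on slide 1, and 2.30 and 2.07 for the same RNA on slide 2. These RNA samples also read higher on slide 1 by 0.83 and 1.78 for Eln, by 0.68 and 0.74 for Col4a2, and by 0.54 and 0.53 for Col4a1 on the log2 scale. They differed little for Col3a1 (-0.15 and 0.08) and Col6a3 (0.13 and 0.02). The differences of days 3 and 7 from day 0, and of day 14 from day 7, depend on these arrays. Values without these arrays are given below for members alone. Genes of other lists are given from the fit with the slide term, with no such check.

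RNA samples also differed within a day. Day 3 RNA sample 4 was the highest of day 3 for 27 of 36 members, by a median of 0.63 above the mean of the others and by more than 1 for 9 members, while the median gap over all features was -0.10. Postn, a matricellular protein, read 5.45 in that sample against 2.03 and 2.31, and Timp1, a metalloproteinase inhibitor, 4.02 against 1.92 and 2.14. Day 0 RNA sample 4 was the lowest of the slide 2 day 0 arrays for 28 members (median gap -0.44, against 0.06 over all features), and day 14 RNA sample 4 was the lowest of day 14 for 20 (median gap -0.26). Postn and Timp1 had the widest SEs of the 36. The summed macrophage markers spanned 22.6 to 51.7 over the day 3 arrays, a wider range than on any other day, and their part in these gaps was not tested.

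**Figure D1:**
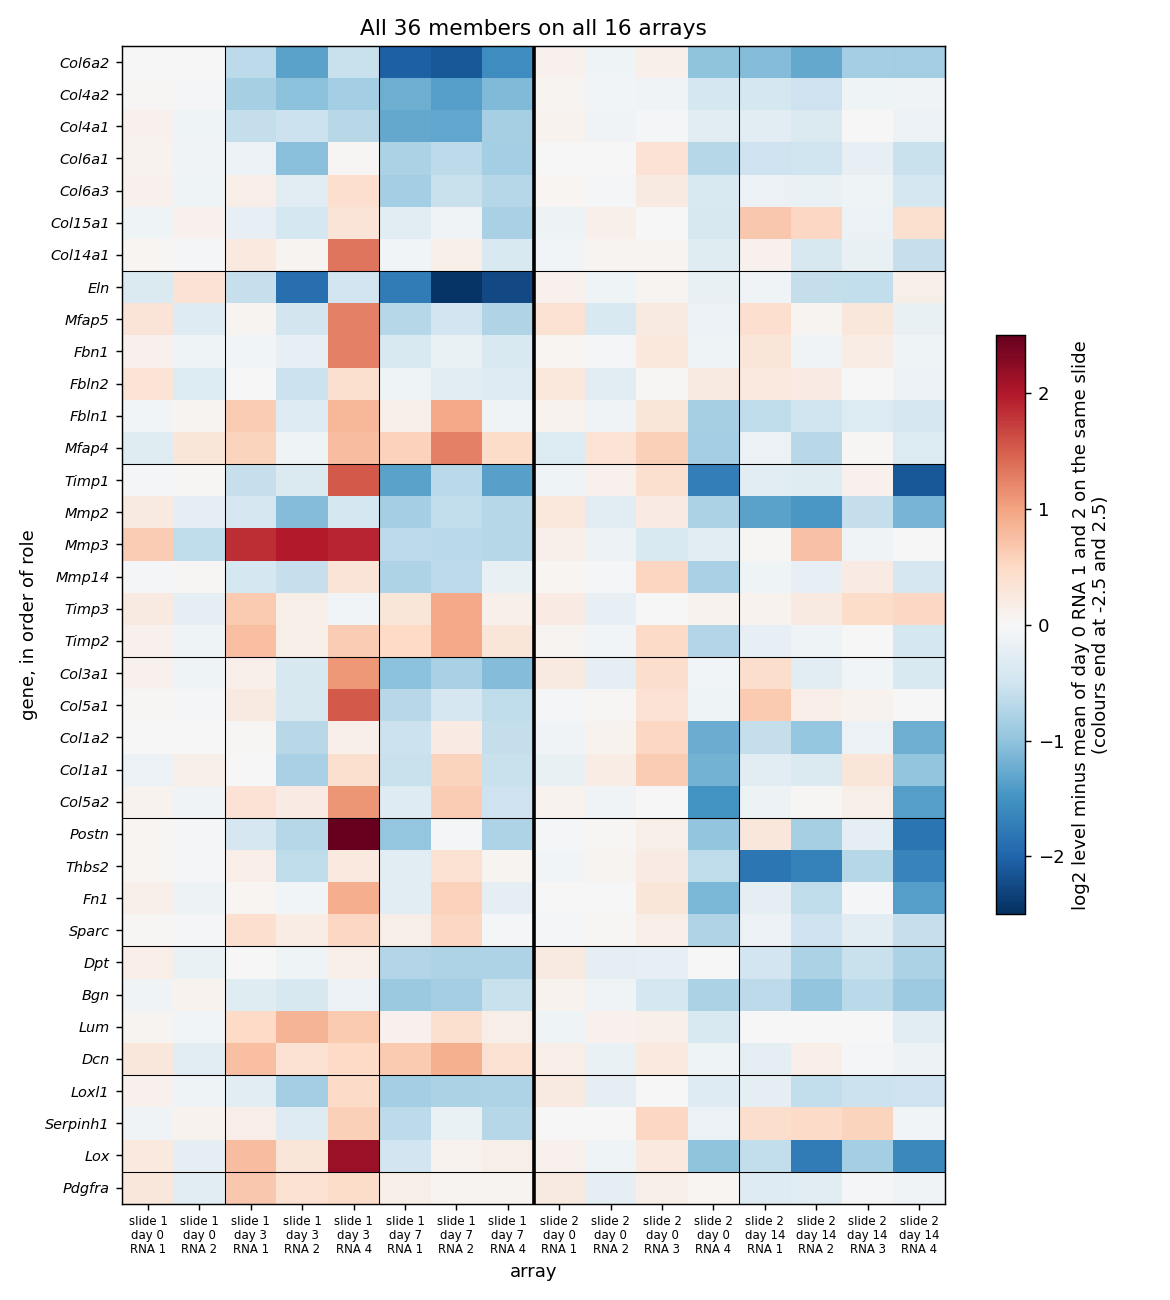
Heat map of the 36 members (rows, in order of role, thin horizontal lines between roles) on the 16 arrays (columns, slide 1 left and slide 2 right of the thick line). Colour gives the log2 level minus the mean of day 0 RNA samples 1 and 2 on the same slide. The column of day 3 RNA sample 4 is mostly red, the day 7 columns are blue for the collagens at the top and for Eln, and day 0 RNA sample 4 and day 14 RNA sample 4 are blue for many members.

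Across the 5 comparisons, 11 members passed in at least 1 (Col3a1, Col4a1, Col4a2, Col6a2, Col6a3, Lum, Dcn, Bgn, Eln, Mmp3 and Dpt) and 25 in none, with 19 calls in all. Of these calls, 9 came from day 7 against day 0. Fewer cells of a type and less RNA per cell cannot be told apart in whole muscle.

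**Figure D2:**
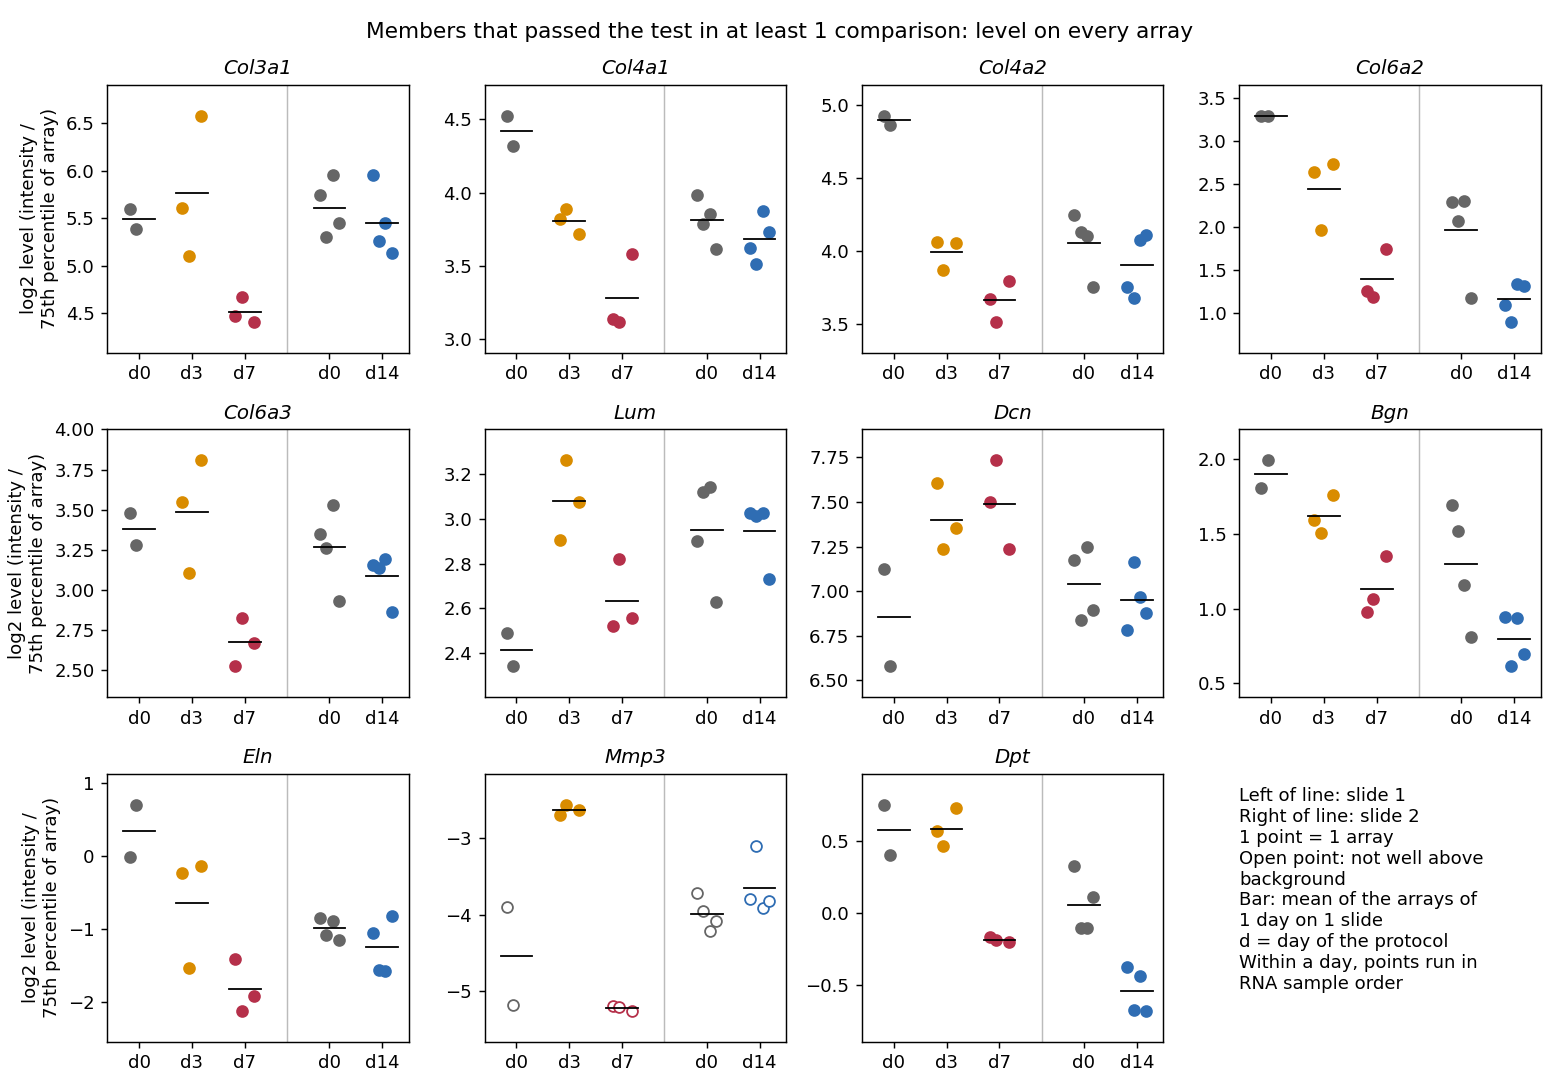
Level of each of the 11 members that passed in at least 1 comparison, 1 point per array, on the log2 scale relative to the array's 75th percentile (vertical axes differ between panels). Day 0, 3 and 7 arrays of slide 1 lie left of the line and day 0 and 14 arrays of slide 2 right of it; bars are means, and open points were not well above background. For Col4a1, Col4a2, Col6a2 and Eln, day 0 was higher on slide 1 than on slide 2, and Mmp3 was above background in the 3 day 3 arrays alone.

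Day 3 against day 0 covers the time while oxygen was still coming down. Mmp3 and Lum were higher, and Col4a1 and Col4a2 lower. That is 2 of 36 higher (5.56%), against 2.27% of all features higher, and 2 of 36 lower, against 3.82% of all features lower. The median difference of the members was 0.23, against 0.06 over all features, and 22 of 36 were above 0. This lean rested on day 3 RNA sample 4. Without that sample 13 of 36 were above 0 and the member median was -0.16, against 0.09 over all features.

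Mmp3 degrades proteoglycans and non-fibrillar collagens and activates other metalloproteinases. It read -2.69, -2.56 and -2.63 in the day 3 samples, and -3.90 and -5.18 in day 0 RNA samples 1 and 2 on slide 1, which were not well above background. On slide 2 the 4 day 0 arrays read -3.71, -3.95, -4.21 and -4.08, and no day 7 or day 14 array was above background either. All 3 day 3 samples lay above both day 0 arrays and all 3 day 7 arrays of slide 1. The dimmest level that counted as above background was -2.46 to -1.84 on the arrays of slide 2, above the day 3 readings, so a level like that of day 3 would not have been called above background at day 14. Mmp3 was at least 1.93-fold higher at day 3 than at day 0, comparing the day 3 mean with the dimmest level that still counted as above background on the slide 1 day 0 arrays. The limma adjusted p of 0.00819 belongs to a fitted difference that uses levels below background, not to this bound. Mmp3 entered the test only through its 3 day 3 arrays, so it had to differ, and its place in the counts is no support. The call was kept without the filter on dim probes, and was lost without day 0 RNA sample 2 (adjusted p = 0.136) and within slide 1 alone (adjusted p = 0.11), where limma called 0 of all features and 4555 had an unadjusted p under 0.05.

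Lum encodes lumican, a small proteoglycan of collagen fibrils. It read 2.91, 3.26 and 3.07 in the day 3 samples against 2.49 and 2.34 at day 0 on slide 1. The groups did not overlap on that slide, but the 4 day 0 arrays on slide 2 read 2.90, 3.12, 3.14 and 2.63, which overlap the day 3 levels. The difference was 0.69 ± 0.17 (SE, n = 3 and 4, adjusted p = 0.0326). Without the slide 1 arrays of day 0 it was 0.13 (adjusted p = 0.646), and the call was also lost without day 0 RNA sample 1 or 2 (adjusted p = 0.102 and 0.281) or day 3 RNA sample 2 (adjusted p = 0.11).

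Col4a1 and Col4a2 encode the chains that form the collagen IV of every basement membrane. Col4a1 read 4.52 and 4.32 at day 0 on slide 1 and 3.82, 3.89 and 3.72 at day 3. Col4a2 read 4.93 and 4.87 at day 0 on slide 1 and 4.06, 3.87 and 4.06 at day 3. Both were lower in every day 3 sample than in both day 0 arrays of the slide, by 0.58 ± 0.15 and 0.84 ± 0.16 in the fit (adjusted p = 0.0419 and 0.0179). On slide 2, day 0 Col4a1 read 3.98, 3.79, 3.85 and 3.62 and Col4a2 read 4.25, 4.13, 4.10 and 3.75, which overlap the day 3 levels. Without the slide 1 arrays of day 0 no difference was left in Col4a2 (-0.06, adjusted p = 0.849), nor in Col4a1 (adjusted p = 0.998). Both calls were also lost without day 0 RNA sample 1 (adjusted p = 0.191 for Col4a1 and 0.0928 for Col4a2), day 0 RNA sample 2 (0.238 and 0.196) or day 3 RNA sample 2 (0.0953 and 0.0674).

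Among other fibroblast markers at day 3, 5 of 27 measured were higher and 0 lower by limma (12 and 1 at an unadjusted p under 0.05). Of all 22126 features, 3092 were higher and 2486 lower at that unadjusted p. Pi16 and Clec3b, markers of adventitial fibroblasts, were higher by 0.81 ± 0.16 and 0.75 ± 0.17 (adjusted p = 0.0212 and 0.0268). Pdgfra, the receptor by which these cells are recognised, differed by 0.48 ± 0.15 and did not pass (adjusted p = 0.0724). Within the members the smallest p-values at day 3 after those that passed belonged to Pdgfra and to Dcn, at 0.53 ± 0.19 (adjusted p = 0.0978). The summed linear level of Pi16 and Clec3b, each relative to the 75th percentile, was 28.1 to 34.9 at day 3, against 16.7 to 18.8 in the slide 1 day 0 arrays and 21.0 to 28.6 in those of slide 2. Its part in the Lum difference was not tested.

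Day 7 against day 0 marks the point at which oxygen reached its lowest level. Among the collagens, Col4a1 and Col4a2 of the basement membrane, Col6a2 and Col6a3 of the fibre surface and Col3a1 of the fibrils fell. Eln (elastic fibres) and the proteoglycan and fibril-binding genes Bgn and Dpt fell too, and Dcn rose. Of the members, 8 of 36 were lower (22.2%), against 8.14% of all features lower, and 1 was higher (2.78%), against 15.6% of all features higher. The median of the members was -0.42, against 0.09 over all features, and 24 of 36 were below 0.

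**Figure D3:**
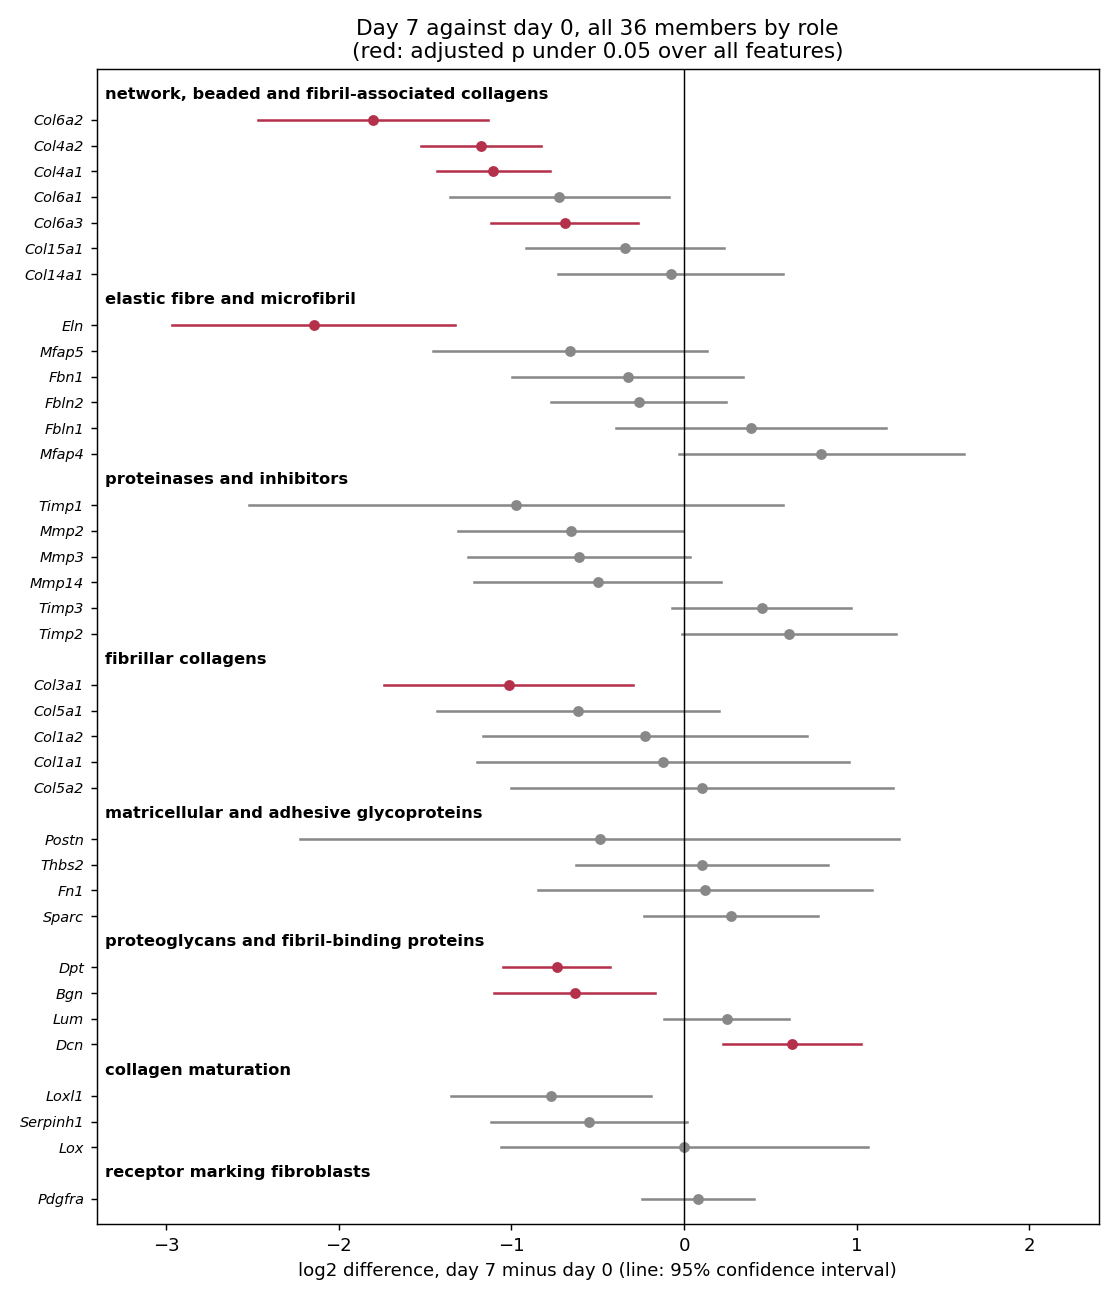
Log2 difference of day 7 minus day 0 (points) with its 95% confidence interval (lines) for all 36 members, grouped by role, with members that passed in red. Of the 7 network, beaded and fibril-associated collagens all lie below 0 and 4 passed; the widest intervals belong to Postn and Timp1.

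Among the 7 collagens that form networks or beaded filaments or attach to fibrils, 4 fell and all 7 differences were below 0, with a median of -0.72. Col4a1 read 3.14, 3.12 and 3.58 at day 7, below both slide 1 day 0 arrays (4.52 and 4.32) and below all 4 on slide 2, of which the lowest read 3.62. Its difference was -1.11 ± 0.15 (n = 3 and 4, adjusted p = 0.0018). Col4a2 read 3.67, 3.52 and 3.80 at day 7, below both slide 1 day 0 arrays but overlapping day 0 RNA sample 4 on slide 2 (3.75). Its difference was -1.18 ± 0.16 (adjusted p = 0.00179). The Col4a1 call held in 25 of 25 alternatives, with adjusted p up to 0.0439, and the Col4a2 call in 24 of 25.

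Collagen VI forms beaded filaments between the basement membrane and the fibrils, and each filament is built of several different chains. Col6a2 read 1.25, 1.18 and 1.74 at day 7, against 3.30 and 3.29 at day 0 on slide 1 and 2.30, 2.07, 2.31 and 1.18 on slide 2. Day 7 was thus clear of day 0 on its own slide but not of day 0 RNA sample 4 on the other. The difference was -1.80 ± 0.31 (adjusted p = 0.00349). Col6a3 read 2.52, 2.82 and 2.67 at day 7, below the slide 1 day 0 arrays (3.48 and 3.28) and the slide 2 day 0 arrays (3.35, 3.26, 3.53 and 2.93). Its difference was -0.69 ± 0.20 (adjusted p = 0.0234). Col6a1, the partner chain and neighbour of Col6a2, had a difference of -0.72 with a 95% interval of -1.36 to -0.09 and did not pass (adjusted p = 0.0931). The 2 members of this group not yet named, Col14a1 and Col15a1, had intervals that included 0; the 3 probes of Col15a1 differed in size at day 7, from -0.39 to -1.86 on slide 1.

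Of the 5 fibrillar collagens, Col3a1 alone fell. Col3a1 read 4.46, 4.67 and 4.41 at day 7, against 5.60 and 5.38 at day 0 on slide 1 and 5.74, 5.30, 5.96 and 5.45 on slide 2. All 3 day 7 arrays lay below all 6 day 0 arrays. The difference was -1.01 ± 0.33 (adjusted p = 0.0423). Col1a1 and Col1a2, the chains of collagen I, differed by -0.12 (95% interval -1.20 to 0.95) and -0.23 (-1.17 to 0.71). Col1a1 read 5.84, 6.95 and 5.83 at day 7 and 5.71 to 7.53 across the 6 day 0 arrays, so the groups overlapped widely, and these intervals allow a change as large as that of Col3a1.

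Eln, which encodes tropoelastin, had the largest fall among the members. It read -1.41, -2.12 and -1.92 at day 7, against -0.01 and 0.70 at day 0 on slide 1 and -0.85, -1.08, -0.89 and -1.15 on slide 2. All day 7 arrays lay below all day 0 arrays, but the distance was far larger on slide 1. The difference was -2.14 ± 0.38 (adjusted p = 0.0037). The other 5 elastic fibre genes did not pass; Mfap4 and Mfap5, both microfibril-associated, had the smallest p-values among them and opposite signs (0.80 ± 0.38 and -0.66 ± 0.37, adjusted p = 0.152 and 0.216).

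The 4 genes of proteoglycans and fibril-binding proteins split in direction. Dpt encodes dermatopontin, which binds decorin and collagen fibrils. It read -0.17, -0.19 and -0.20 at day 7, against 0.75 and 0.40 at day 0 on slide 1 and 0.33, -0.11, -0.10 and 0.11 on slide 2. The day 7 samples lay close together and below all day 0 arrays. The difference was -0.74 ± 0.14 (adjusted p = 0.00471).

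Bgn encodes biglycan, a small proteoglycan related to decorin. It read 0.98, 1.06 and 1.35 at day 7, against 1.81 and 1.99 at day 0 on slide 1 and 1.69, 1.52, 1.16 and 0.81 on slide 2, where the groups overlapped. The difference was -0.63 ± 0.22 (adjusted p = 0.0482), close to the threshold. Dcn encodes decorin, the main small proteoglycan of muscle connective tissue, and rose. It read 7.50, 7.73 and 7.24 at day 7, against 7.13 and 6.58 at day 0 on slide 1 and 7.17, 6.84, 7.25 and 6.89 on slide 2. Day 7 lay above day 0 on slide 1 and met it at the edge on slide 2. The difference was 0.62 ± 0.19 (adjusted p = 0.0277). Lum, the neighbour of Dcn, differed by 0.25 ± 0.17 (adjusted p = 0.315).

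No gene of the matricellular glycoproteins, of collagen maturation, or of the proteinases and inhibitors passed at day 7. The smallest p-values of these groups belonged to Loxl1, which cross-links elastin (-0.77, 95% interval -1.35 to -0.19, adjusted p = 0.0528), Mmp2, a gelatinase (-0.66, -1.31 to -0.004, adjusted p = 0.135), and Serpinh1, the collagen chaperone (-0.55, -1.12 to 0.02, adjusted p = 0.151). Sparc, a collagen-binding glycoprotein, differed by 0.27 (-0.23 to 0.78). Pdgfra differed by 0.08 (-0.25 to 0.40, adjusted p = 0.745).

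How the slide was treated changed which of these calls stood. Within slide 1 alone, with 3 day 7 arrays against 2 day 0 arrays, 6 of the 9 were kept (Bgn, Col4a1, Col4a2, Col6a2, Dpt and Eln). No other member passed, so that made 6 of 36, all lower, against 3.79% of all features lower. In either direction 2094 of 22126 features passed. With no slide term 6 were kept (Col3a1, Col4a1, Col4a2, Col6a3, Dcn and Eln). Mmp3, not above background on either day, and Serpinh1 were gained. That made 8 of 36 in either direction, against 3283 of 22126 features, with 5.70% of all features lower. Without the slide 1 arrays of day 0, 3 were kept (Col3a1, Col4a1 and Col6a3), and Mmp3 and Serpinh1 were gained. That made 5 of 36 in either direction, against 3872 of 22126 features, with 10% of all features lower. Day 7 then shares no slide with day 0, and day cannot be told apart from slide. Under this last treatment the difference was -0.53 for Col4a1, -0.40 for Col4a2, -0.57 for Col6a2, -0.83 for Eln, -0.24 for Dpt and -0.17 for Bgn, all well short of the main values. It was -1.10 for Col3a1 and -0.59 for Col6a3, close to the main values. Col4a1 was the member that passed under all of them.

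**Figure D4:**
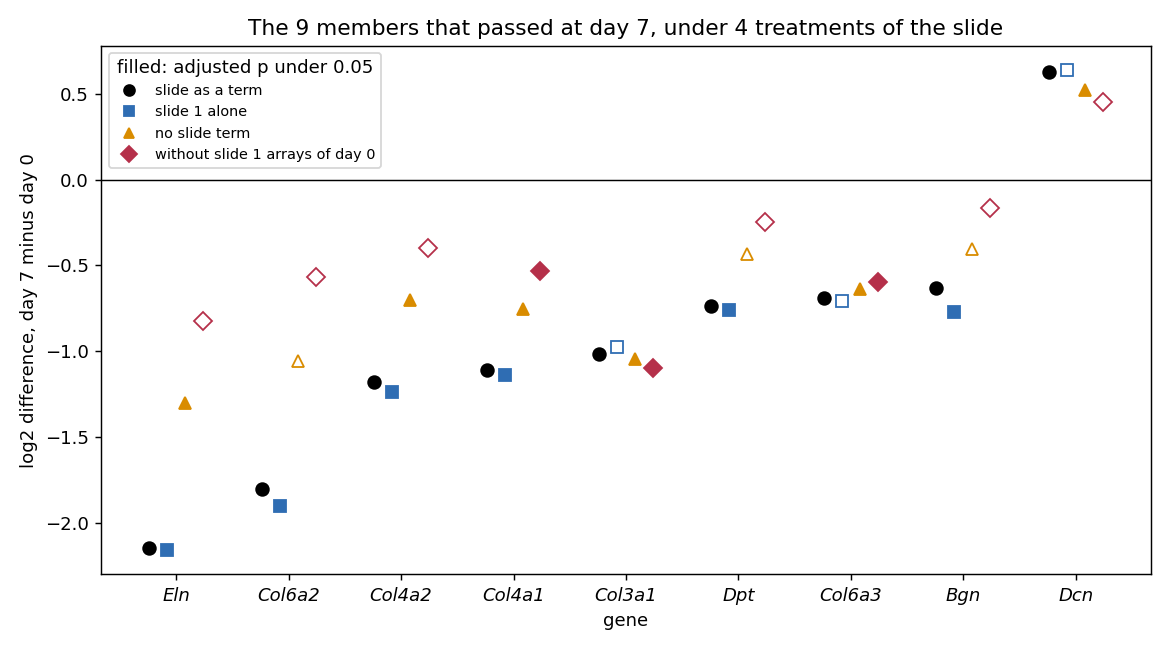
Log2 difference of day 7 minus day 0 for the 9 members that passed, under 4 treatments of the slide (symbols), filled where the adjusted p was under 0.05. Eln, Col6a2, Col4a2, Col4a1, Dpt and Bgn move towards 0 as the slide 1 arrays of day 0 lose weight, and Col3a1 and Col6a3 keep nearly the same value.

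Single RNA samples mattered too. Without day 0 RNA sample 2, which leaves 1 day 0 array on slide 1, only Col4a1 and Col4a2 passed. That is 2 of 36 members, where 103 of 22126 features passed, against 5261 with all samples. Calls were thus lost over all features and not in the members alone. The difference was then -1.75 for Eln (adjusted p = 0.0712), -1.74 for Col6a2 (0.0669), -0.84 for Dpt (0.0618), -0.77 for Col6a3 (0.113), -1.07 for Col3a1 (0.164), -0.47 for Bgn (0.317) and 0.39 for Dcn (0.291). Without day 7 RNA sample 1, Col3a1 (adjusted p = 0.0976), Col6a3 (0.0768), Bgn (0.135) and Dcn (0.0672) were lost. Without day 0 RNA sample 1, Col3a1 (0.157), Col6a3 (0.144) and Bgn (0.0742) were lost, and without day 7 RNA sample 2, Col3a1 (0.0784), Bgn (0.127) and Dcn (0.109). Col3a1 was also lost without day 0 RNA sample 3 (0.0584) and day 7 RNA sample 4 (0.0843), and Bgn without day 0 RNA sample 3 (0.0535). Bgn and Col3a1 were the calls lost most often, in 16 and 13 of 25 alternatives, some of them by leaving out a day 3 or day 14 sample.

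Other lists of matrix genes were read at day 7 against the shares over all features, 8.14% lower and 15.6% higher. How far their differences depend on the slide 1 arrays of day 0 is not given. Of 30 measured enzymes of collagen synthesis and processing, 4 fell (13.3%) and 1 rose (3.33%). Plod3 and Plod1, lysyl hydroxylases of collagen, fell by 0.95 ± 0.16 and 1.03 ± 0.22 (adjusted p = 0.00325 and 0.00646), and Pepd, a dipeptidase that frees proline from collagen fragments, rose by 0.57 ± 0.14. The median of that list was -0.13. Of 19 other collagens limma called 0 in either direction at any day against day 0 (at an unadjusted p under 0.05, 2 were lower at day 3, 1 at day 7 and 1 at day 14), and Col20a1 had the smallest p of them (-0.51 ± 0.18 at day 3, adjusted p = 0.0952). Of all 22126 features, 2486, 2872 and 1585 were lower at that unadjusted p at days 3, 7 and 14. In the basement membrane list, Lama5 and Smoc2 rose by 0.53 ± 0.16 and 0.81 ± 0.19 (2 of 16 higher, 12.5%, and 0 lower), a share below that over all features.

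Of 23 other proteinases and inhibitors 5 fell (21.7%), among them the membrane-bound metalloproteinases Mmp17 and Mmp15 by 0.76 ± 0.16 and 0.94 ± 0.20, and Ctsl, a lysosomal cathepsin, rose by 0.44 ± 0.14. Of 42 other genes listed as matrix glycoproteins and proteoglycans 4 rose (9.52%) and 3 fell (7.14%), both below the shares over all features. Mfap1a and Ecm2 had the smallest p-values of those that rose (0.69 ± 0.16 and 0.68 ± 0.16); Mfap1a is in the list by its name, and its product is known as a nuclear splicing protein rather than a matrix protein. Among those that fell were Tnxb, a tenascin, and Vcan, a large proteoglycan (-0.48 ± 0.12 and -0.70 ± 0.18). Of 26 matrix receptors 7 fell (26.9%) and 4 rose (15.4%). Itga5, the fibronectin receptor chain, fell by 2.30 ± 0.41; it read 1.01 and 1.09 at day 0 on slide 1, and on slide 2 was well above background on 1 of 4 day 0 arrays, at -2.14 to -1.65 over all 4. Also lower was Sdc3, a syndecan, by 0.87 ± 0.20, while the sarcoglycans Sgcb and Sgca rose by 0.78 ± 0.15 and 0.52 ± 0.12.

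Transforming growth factor beta drives matrix synthesis by fibroblasts. Of 25 measured genes of its pathway 3 fell and 3 rose at day 7 (12% each). Eng, a coreceptor, and Tgfb1, a ligand, fell by 1.05 ± 0.16 and 1.62 ± 0.32 (adjusted p = 0.00213 and 0.00485), while Smad4, the common mediator, and Tgfb2, another ligand, rose by 0.46 ± 0.12 and 0.50 ± 0.14. Among 17 oxygen-responsive genes, 2 rose and 2 fell (11.8% each): Ankrd37 and Bnip3 rose by 0.64 ± 0.13 and 0.62 ± 0.19, and Plod1 and Plod2 fell (Plod2 by 0.86 ± 0.28).

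Fibroblast markers outside the 36 did not fall together at day 7. Of 27 measured, 4 rose (14.8%, near the share over all features), with Cd34 and Smoc2 at 0.71 ± 0.16 and 0.81 ± 0.19, and 1 fell, Ly6a, at -1.13 ± 0.23 (adjusted p = 0.006). The summed level of Pi16 and Clec3b was 20.0 to 28.4 at day 7, against 16.7 to 18.8 at day 0 on the same slide and 21.0 to 28.6 on slide 2, which covers most of the day 7 range. Macrophage markers were lower: 4 of 10 fell and 0 rose by limma (6 and 0 at an unadjusted p under 0.05), with C1qa and C1qb at -1.62 ± 0.36 and -1.53 ± 0.36. Of all 22126 features, 2872 were lower and 5206 higher at that unadjusted p. The summed level of the macrophage markers was 16.5 to 18.5 at day 7, against 23.2 to 32.1 at day 0 on slide 1 and 22.4 to 30.6 on slide 2. The macrophage gene Fcgr1 was above background on no day 7 array, but at day 0 on only 1 of 2 arrays of slide 1 and 0 of 4 of slide 2. Of 8 neutrophil markers 4 were measured, with a median of -2.35. S100a9 and S100a8, calcium-binding proteins abundant in neutrophils, fell by 3.47 ± 0.89 and 3.04 ± 0.81 (adjusted p = 0.0145 and 0.0176), S100a8 being well above background on 1 of 3 day 7 arrays. Csf3r, a cytokine receptor, rose by 0.36 ± 0.11 (adjusted p = 0.0288). Retnlg was above background on no day 7 array, but at day 0 on only 1 of 2 arrays of slide 1 and 2 of 4 of slide 2. The summed level of the 4 measured neutrophil markers was 158 to 193 at day 7, against 127 to 153 at day 0 on slide 1 and 157 to 182 on slide 2. A linear sum is set by its brightest genes, and S100a8 read only -4.82 to -3.20 on the log2 scale at day 7. On slide 1 the sum rose as Csf3r did, so it does not track S100a8 and S100a9. Of 12 measured genes of the contractile stroma list 3 fell and 1 rose at day 7; Des, a muscle intermediate filament, fell by 1.02 ± 0.19 and Acta2, smooth muscle actin, by 0.83 ± 0.17. Of 10 endothelial markers 2 fell, Tie1 by 0.95 ± 0.18 and Pecam1 by 0.65 ± 0.16, and Egfl7 rose by 0.67 ± 0.15. Their summed level was 166 to 174 at day 7, against 121 to 131 at day 0 on slide 1 and 132 to 155 on slide 2. The part of these shifts in the member differences was not tested.

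Day 7 against day 3 compares the end of the stepwise lowering with its middle, within slide 1. Dpt and Mmp3 fell, and 31 of the 36 members were below 0, with a median of -0.47 against 0.05 over all features. That is 2 of 36 lower (5.56%), against 0.23% of all features lower, and 0 of 36 higher by limma (0 also at an unadjusted p under 0.05, against 18 lower), against 0.447% of all features higher. At that unadjusted p, 2235 of all 22126 features were higher and 1076 lower. Mmp3 entered the test only through its 3 day 3 arrays, so it had to differ, and its place in these member counts is no support. Dpt read 0.57, 0.47 and 0.72 at day 3 and -0.17, -0.19 and -0.20 at day 7, with no overlap, a difference of -0.77 ± 0.13 (n = 3 and 3, adjusted p = 0.0202). The Dpt call was lost without day 3 RNA sample 1 (adjusted p = 0.0765), day 3 RNA sample 4 (0.089), day 7 RNA sample 1 (0.0942) or day 7 RNA sample 2 (0.068). Mmp3 was at least 1.81-fold higher at day 3 than at day 7, where it was below background on all 3 arrays. The limma adjusted p of 0.00146 belongs to a fitted difference that uses levels below background, not to this bound. In a fit of slide 1 alone neither Dpt nor Mmp3 passed (adjusted p = 0.15 and 0.0826), and 0 of all features did (2624 at an unadjusted p under 0.05). Without day 3 RNA sample 4, 25 of 36 members were below 0 and the member median was -0.25, against 0.02 over all features.

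Day 14 against day 0 compares the end of a week at stable low oxygen with the start, and rests on slide 2. A single member passed, Dpt, which was lower: 1 of 36 (2.78%), against 0.108% of all features lower. By limma 0 of 36 were higher (1 at an unadjusted p under 0.05, against 6 lower), against 0.294% of all features higher. At that unadjusted p, 2978 of all 22126 features were higher and 1585 lower. The median of the members was -0.20, against 0.06 over all features. Dpt read -0.38, -0.67, -0.44 and -0.68 at day 14, below the 4 day 0 arrays of slide 2 (0.33, -0.11, -0.10 and 0.11) and below both on slide 1. Its difference was -0.60 ± 0.11 (n = 4 and 4, adjusted p = 0.0446). The call was lost in 17 of 25 alternatives, including each of the leave-outs of a day 0 or day 14 sample (adjusted p = 0.0524 to 0.144), while the difference stayed between -0.51 and -0.66 in them.

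The members Thbs2 and Mmp2 came close at day 14. Thbs2, a matricellular thrombospondin, read -1.12, -0.99, -0.02 and -0.97 at day 14 and 0.63, 0.75, 0.90 and 0.06 at day 0 on slide 2. Day 14 RNA sample 3 and day 0 RNA sample 4 lay closest, with no overlap, and the difference was -1.36 (95% interval -1.94 to -0.78, adjusted p = 0.0504). Mmp2 read 1.49, 1.38, 2.23 and 1.66 at day 14 and 3.09, 2.57, 3.03 and 2.04 at day 0, a difference of -0.99 (-1.51 to -0.47, adjusted p = 0.0766). Both passed without day 0 RNA sample 4. Lox, a lysyl oxidase, was well above background on 1 of 4 day 14 arrays and 3 of 4 day 0 arrays of slide 2 and did not pass.

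At day 14 no marker of macrophages passed by limma (3 lower and 1 higher at an unadjusted p under 0.05), and their summed level (22.6 to 25.7) lay within the slide 2 day 0 range (22.4 to 30.6). Of all 22126 features, 1585 were lower and 2978 higher at that unadjusted p. Tendon markers had a median of -1.14, with Fmod, a tendon proteoglycan, lower by 2.07 ± 0.39 (adjusted p = 0.0446, 1 of 11). Their summed level was 46.8 to 100 at day 14 and 63.7 to 159 at day 0 on slide 2. The part of tendon tissue in the sampled muscle in the Dpt, Thbs2 and Mmp2 values was not tested. Of the oxygen-responsive genes Ankrd37 was higher at day 14, by 1.14 ± 0.11 (adjusted p = 0.00139).

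Day 14 against day 7 asks whether members moved back once oxygen was stable. Col4a1, Col4a2 and Eln were higher at day 14 than at day 7, by 0.98 ± 0.18, 1.02 ± 0.19 and 1.88 ± 0.44 (n = 4 and 3, adjusted p = 0.0199, 0.0207 and 0.0449). That is 3 of 36 higher (8.33%), against 1.12% of all features higher, and 0 of 36 lower by limma (4 at an unadjusted p under 0.05, against 9 higher), against 1.18% of all features lower. At that unadjusted p, 2829 of all 22126 features were lower and 2061 higher. The median of the members was 0.14, against -0.04 over all features. Col4a1 read 3.62, 3.52, 3.87 and 3.73 at day 14 and 3.14, 3.12 and 3.58 at day 7, and Col4a2 read 3.76, 3.68, 4.08 and 4.11 against 3.67, 3.52 and 3.80. Eln read -1.05, -1.56, -1.58 and -0.82 against -1.41, -2.12 and -1.92. Before the slide term all 3 overlapped, since day 7 and day 14 share no slide and meet only through day 0 RNA samples 1 and 2.

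Without the slide term, or without the slide 1 arrays of day 0, the day 14 minus day 7 difference was 0.41 for Col4a1, 0.24 for Col4a2 and 0.56 for Eln, and none of the 3 passed (adjusted p = 0.177, 0.527 and 0.403 with no slide term). They were also lost without day 0 RNA sample 1 (adjusted p = 0.0757, 0.0681 and 0.0725), day 0 RNA sample 2 (0.172, 0.19 and 0.326), day 7 RNA sample 1 (0.0618, 0.0591 and 0.0728) or day 7 RNA sample 2 (0.0584, 0.0614 and 0.118), and Eln in 17 of 24 alternatives in all. Against day 0, the day 14 differences were -0.12 ± 0.12 for Col4a1, -0.15 ± 0.13 for Col4a2 and -0.26 ± 0.30 for Eln, and none passed. Both sets of differences share the day 0 samples. Of the other genes named as falling at day 7, Acta2 and Itga5 passed as higher at day 14, by 1.07 ± 0.20 and 2.09 ± 0.48. Their adjusted p was 0.0226 and 0.042. Before the slide term Itga5 read lower at day 14 (-2.33 to -1.72) than at day 7 (-1.61 to -0.63). It was well above background on 0 of 4 day 14 arrays. Neither difference is given without the slide 1 arrays of day 0.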

How the data were processed

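Per the file headers, the deposited scanner files hold spot intensity from Agilent Feature Extraction 11.0.1.1 (1 colour, Cy3), with the background subtracted and arrays not yet scaled to each other. The series table is a deposited intensity on a linear scale too; the steps, centring and scaling behind it are not given in the sources used here. Its column medians were 45.12 to 46.44, and it served as an alternative.

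The log2 intensity was reduced by each array's 75th percentile over non-control spots (203 to 271 on slide 1 and 49.1 to 77.0 on slide 2), without outlier spots, and averaged per probe. Spots well above background made up 48.3 to 55.3% on slide 1 and 37.9 to 42.9% on slide 2. Of 55681 probes, 49.7% were named through RefSeq transcripts. Probes above background on at least 3 of 16 arrays were kept, the brightest per gene. Of the 36 members 7 had more than 1 kept probe, and 19 of 24 differences of their other probes had the same sign.

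Days were compared with limma 3.58.1 (R 4.3.3, statmod 1.5.0): fixed terms for day and slide, and a random block for arrays of 1 RNA sample (correlation 0.448), with Benjamini-Hochberg adjustment over 22126 features. The fit was also run on data simulated from the same model, with 1 additive slide term shared by all days. That run cannot show whether the slide acted alike on the arrays of every day. When day 0 RNA sample 1 or 2 was left out, the correlation could not be estimated and that of all samples was used, and a lone sample was assumed to vary like the others. Bounds compare the brighter group's mean with the dimmest level still counted as above background on the dimmer group's arrays.

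The members, lists and tests were chosen with earlier results of these data known. Each member that passed is given on every array; per role, up to 2 others with the smallest p are named, and per list up to 2 in each direction. Col1a1, Col1a2, Col15a1, Postn and Timp1 fall outside this rule at day 3 or 7 and were named after their values were seen. Alternatives covered the slide, background, normalization, probe filter, probe choice, blocks and each RNA sample.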

Additional observations from a re-analysis of the deposited data

Results flagged for a closer look

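In groups of 4 arrays on slide 2, 22 groups of the 11 called members were screened for a sample far from the others. The gap was taken relative to the range of the group, and chance marks about 1 in 20. Day 14 RNA sample 4 was marked as low for Col6a3 (2.86, others 3.14 to 3.19) and Lum (2.73, others 3.01 to 3.03). In both the other arrays lay close together, so the gap is small on the log2 scale. Day 14 RNA sample 2 was marked as high for Mmp3 (-3.09), where no array was above background.

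The difference from day 0 itself differed between days, by the limma contrast of the days, for 5 members. It was lower at day 7 than at day 3 for Dpt (-0.77), and higher at day 14 than at day 7 for Col4a1 (0.98), Col4a2 (1.02) and Eln (1.88). The Col4a1, Col4a2 and Eln calls were lost with no slide term and without the slide 1 arrays of day 0. Within slide 1 alone the Dpt call was lost. The difference from day 0 was also lower at day 7 than at day 3 for Mmp3, a call likewise lost within slide 1 alone. Mmp3 entered the test only through its 3 day 3 arrays, so it had to differ. The fitted difference, -2.59, is no measured size, since Mmp3 was not above background at day 0 or day 7, and the levels allow at least 1.81-fold.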

How the results depend on the processing

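Of the called member differences under their alternatives, 336 kept direction and call, 134 kept direction but lost the call, and 0 reversed. Of 36 members, the count that passed was 4 at day 3, 9 at day 7 and 1 at day 14 (each against day 0), with 2 for day 7 minus day 3 and 3 for day 14 minus day 7. Over all 22126 features the counts were 1348, 5261, 89, 150 and 508, in the same order. With no slide term the member counts were 1, 8, 5, 1 and 6 (260, 3283, 3101, 62 and 2578 over all features). Within 1 slide they were 0, 6, 0 and 0 (0, 2094, 1 and 0 over all features), and day 14 against day 7 has no such value. Without the slide 1 arrays of day 0 they were 2, 5, 0, 2 and 7 (2072, 3872, 35, 100 and 4175 over all features). With normexp correction, chosen after seeing the data, they were 8, 13, 0, 7 and 10 (3491, 7133, 23, 730 and 4157 over all features). The planned version on mean signals could not be run, since the scanner files hold none, and median signals were used in its place. Quantile normalization gave 2 at day 14, and the values of the series table gave 3 at day 14 and 4 for day 7 against day 3. With probes above background on all arrays, 3 passed at day 14, 5 for day 7 minus day 3 and 5 for day 14 minus day 7, among 33 members. Fewer features were then tested, and 418, 436 and 1658 of 14797 passed. With no filter on dim probes 2 passed at day 3, 0 at day 14 and 1 for day 7 against day 3 (403, 17 and 44 of 36964 features). Without the random block 1 passed for day 14 against day 7 (83 over all features). Apart from these changes of slide, filter and samples, the cause was not tested. Leaving out 1 RNA sample gave 0 to 4 at day 3, 2 to 11 at day 7, 0 to 3 at day 14, 1 to 6 for day 7 minus day 3 and 0 to 4 for day 14 minus day 7. Over all features these ranges were 10 to 1711, 103 to 5802, 3 to 219, 28 to 270 and 4 to 1209. The median of the members lay between -0.49 and -0.27 at day 7 under all alternatives and between -0.16 and 0.44 at day 3. The labels' sample numbers did not pair the samples (correlation of same-numbered samples -0.152 to 0.169, over 0.1 in 6 of 19 pairs). With the number as a replicate block the member counts were 4, 8, 0, 2 and 4 (1339, 5025, 21, 44 and 1145 over all features). Signal near background limits Mmp3 and Lox.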
